A study of Zea mays with 6 samples.

Results

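The genes described here form a block of 103 neighbouring identifiers, from Zm00001d020340 to Zm00001d020588, in the sheath of the second leaf of maize. They are 103 of the 44146 identifiers listed in each library. A member averaged 1 FPKM or more across the 6 libraries, was above 0 in both genotypes and was not among 2 identifiers left out by name. FPKM is a level that counts sequenced fragments and corrects them for gene length and library size. The block was picked from a scan of the same libraries for its density of genes that changed 2-fold or more between the genotypes. The contrast between genotypes is therefore a description of these genes here and no test of the block.

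There were 3 libraries from GARR2KO plants, knocked out for the long noncoding RNA GARR2, and 3 from wild-type plants (WT). All came from untreated seedlings at the stage of 3 leaves, grown under normal conditions, and the replicates are biological replicates per the labels. How the knockout was made, whether it is 1 line or several, whether WT plants were its siblings and whether plants were pooled are not given in the labels. Reads recovered over the listed genes numbered 17723726 to 19182497 per GARR2KO library and 17750725 to 20722307 per WT library. At that depth 1 read stood for 0.024 to 0.0283 FPKM if the gene was 2 kb long. No identifier is known here to be GARR2, so its loss in the knockout was not checked, nor was the sheath checked against marker genes, because identifiers carry no names.

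A long noncoding RNA is a transcript that is not translated into protein, and some act on the transcription of other genes, near to them or far away. In grasses the sheath is the part of a leaf below the blade, and it encloses the shoot. Gene models of the maize inbred B73 in the release with Zm00001d identifiers were numbered along the chromosomes, so nearby numbers usually mean nearby genes. Genes close together on a chromosome are inherited together, and each is also read from its own promoter. The label of the block places it on chromosome 7. The deposited files give neither chromosome nor position, and 0 of the listed identifiers were found in the gene table at hand, which belongs to another assembly, so the placement was not checked. What the members encode is not reported for the same reason, and no sequence is shown.

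Of the 204 identifiers listed in this range of numbers, 105 had a mean of at least 1 FPKM and 99 were below it. Of those below, 61 were at 0 in all 6 libraries and 38 were above 0 in some library. Among these 38, 5 were at 0 in every WT library and 3 at 0 in every GARR2KO library, each with a mean of at most 0.167 FPKM. None of the 105 genes at 1 FPKM or more was at 0 throughout a genotype, so the condition on silent genes removed 0 genes here. Just above the limit lay Zm00001d020355, with a mean of 1.01 FPKM, and Zm00001d020493, with 1.04 FPKM. Just below it lay Zm00001d020558, with 0.989 FPKM, and Zm00001d020382, with 0.958 FPKM.

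In GARR2KO sheaths 23 members rose and 31 fell, and 49 did not pass the threshold. Over all tested genes 20.1% rose and 24.1% fell. A gene was called at an adjusted p below 0.05 (limma-trend on log2(FPKM + 1), two-sided, Benjamini-Hochberg over the 21531 genes that averaged 1 FPKM or more, n = 3 per genotype). The 54 called members were 52.4% of the block, and the share over all tested genes was 44.2%. The excess of falls among calls of any size turned round with scaling by summed gene reads (29 rose and 27 fell) and with voom on recovered reads (31 and 29). Falls of at least 2-fold outnumbered rises of that size, with 10 members against 5. These 15 members were 14.6% of the block, where 4.01% of all tested genes changed that much, and the excess is what the block was picked for. Over all tested genes 2.01% rose and 2.01% fell 2-fold or more. The median log2 difference of the members was -0.04, and that of all tested genes was -0.01. Without regard to sign, the median size of the difference was 0.22 for the members and 0.2 for all tested genes. The p-values behind these calls measure the spread between the libraries of each genotype, which may include differences of growth or harvest, and no label names a batch. In bulk tissue, fewer cells of a type and less RNA per cell cannot be told apart.

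**Figure D1:**
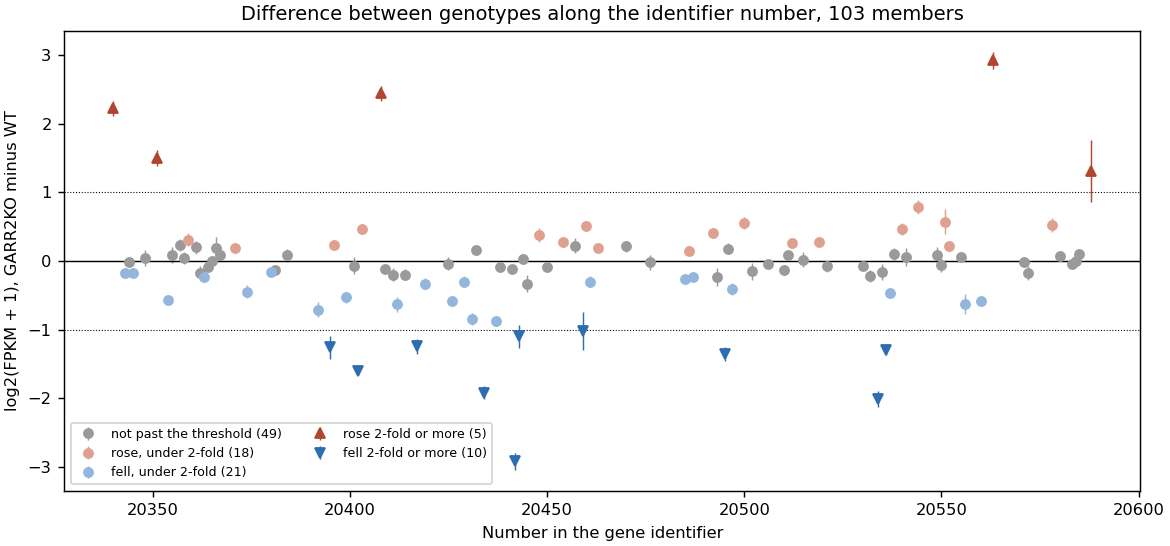
Difference in log2(FPKM + 1), GARR2KO minus WT, for each of the 103 members against the number in its identifier. Bars are standard errors from limma and dotted lines mark 2-fold; the 5 large rises reach 2.92 and the 10 large falls reach -2.92.

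Values of the genotypes did not overlap for 52 of the 54 called members and for 15 members that were not called. GARR2KO was higher in 29 of these 67 and lower in 38, together 65.0% of the block. Over all tested genes 56.2% did not overlap, with GARR2KO higher in 26.8% and lower in 29.4%. The 2 called members with overlap were Zm00001d020588 and Zm00001d020551, the second of which is named only because its values were seen. Zm00001d020551 had 2.34, 3.69 and 3.84 FPKM in GARR2KO, against 1.91, 1.3 and 2.47 FPKM in WT. Its log2 difference of 0.57 was no longer called without GARR2KO replicate 2 (0.50), GARR2KO replicate 3 (0.47), WT replicate 1 (0.58) or WT replicate 2 (0.41), nor with no filter on level (0.57).

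All 5 members that rose 2-fold or more had a WT mean under 1 FPKM. They therefore met the mean of 1 FPKM asked of a member only through their GARR2KO libraries. In the same way Zm00001d020395, Zm00001d020443 and Zm00001d020534, which fell, had GARR2KO means under 1 FPKM and met it only through WT. The low level in the other genotype is thus partly set by the rule of members. Zm00001d020563 had 5.76, 7.98 and 6.45 FPKM in GARR2KO libraries and 0.016, 0.0176 and 0 FPKM in WT libraries. This is a gene close to silent in WT that was read in every GARR2KO library. It had 1165 reads in GARR2KO and 2 in WT, a ratio of 577 after scaling to library size, with a counting interval of 159 to 4770. The interval is exact at 95% and covers counting error only. On the log2(FPKM + 1) scale, which understates changes of low genes, the difference was 2.92 (SE 0.12).

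Zm00001d020408 had 10.2, 8.65 and 9.84 FPKM in GARR2KO and 1.03, 0.686 and 1.13 FPKM in WT. The lowest GARR2KO library was far above the highest WT library, and the mean was 10.1-fold higher (log2 difference 2.44, SE 0.109). Zm00001d020340, the first member by number, had 4.12, 4.93 and 3.98 FPKM in GARR2KO and 0.134, 0.207 and 0.095 FPKM in WT. With 449 reads in GARR2KO and 15 in WT it was 29.9-fold higher by mean FPKM (log2 difference 2.22, SE 0.109). With 4 members between them, Zm00001d020351 had 2.56, 3.46 and 2.66 FPKM in GARR2KO and 0.38, 0.355 and 0.379 FPKM in WT, a log2 difference of 1.5 (SE 0.118). The WT libraries of this gene lay closer together than those of GARR2KO.

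Zm00001d020588, the last member, was the least even of the 5. It had 3.89, 0.449 and 3.95 FPKM in GARR2KO and 0.597, 0.439 and 0 FPKM in WT. GARR2KO replicate 2 lay among the WT libraries, while the other 2 GARR2KO libraries lay above all of them. The log2 difference was 1.31 with an SE of 0.445, and the call depended on which libraries were used. It was lost without GARR2KO replicate 1 (1.02), GARR2KO replicate 3 (1.01), WT replicate 1 (1.45), WT replicate 2 (1.37) or WT replicate 3 (1.11). Without GARR2KO replicate 2 the gene was still called, with a difference of 1.90.

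The largest fall of the block on the log2(FPKM + 1) scale was that of Zm00001d020442, with 16.8, 14.1 and 11.5 FPKM in GARR2KO and 107, 107 and 125 FPKM in WT. Its mean was 7.97-fold lower in GARR2KO, a log2 difference of -2.92 (SE 0.122), from 565 reads in GARR2KO and 4425 in WT. By the ratio of mean FPKM, with a pseudocount of 0.1 and with voom, the fall of Zm00001d020534 was larger. The next identifier, Zm00001d020443, also fell, with 0.234, 0.341 and 0.492 FPKM in GARR2KO and 2.19, 1.25 and 2.41 FPKM in WT. It rests on 13 reads in GARR2KO and 71 in WT. These are the only 2 members with consecutive numbers that both changed 2-fold or more. Whether they overlap or share reads was not tested, because the files give neither strand nor position.

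Zm00001d020402 was the most abundant member and the one that changed the summed level most. It had 296, 292 and 296 FPKM in GARR2KO, against 892, 865 and 944 FPKM in WT. Reads numbered 27888 in GARR2KO and 84163 in WT, so the log2 difference of -1.61 (SE 0.049) is the most precise of the 15. The 3 GARR2KO libraries had an SD of 2.5 FPKM. Zm00001d020434 had 30.7, 26.6 and 34.1 FPKM in GARR2KO and 118, 108 and 129 FPKM in WT, 3.88-fold lower by mean (log2 difference -1.92, SE 0.096). Zm00001d020536 had 19.5, 16 and 17 FPKM in GARR2KO and 42.1, 45.3 and 44.5 FPKM in WT, 2.52-fold lower (log2 difference -1.29, SE 0.073). In each of these 3 genes the highest GARR2KO library stayed well below the lowest WT library.

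Zm00001d020534 was close to silent in GARR2KO, the reverse of Zm00001d020563. It had 0.206, 0.151 and 0 FPKM in GARR2KO and 3.47, 3.39 and 3.62 FPKM in WT. Its 5 reads in GARR2KO and 144 in WT gave a WT level 29.1 times that of GARR2KO, with a counting interval of 12.2 to 90.9, and its log2 difference was -2.01 (SE 0.111). With a pseudocount of 0.1 the difference was -4.19, against -3 in Zm00001d020442, and with voom it was -4.85, against -2.95. Just 2 numbers separate it from Zm00001d020536, which also fell, although 1 member lies between them.

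Of the other members that fell 2-fold or more, Zm00001d020495 had 3.43, 3.97 and 3.86 FPKM in GARR2KO and 12.6, 9.5 and 11.4 FPKM in WT (log2 difference -1.35, SE 0.101). Zm00001d020417 had 1.44, 1.06 and 1.15 FPKM in GARR2KO and 4.45, 4.58 and 3.65 FPKM in WT (-1.24, SE 0.109). Both genes fell by similar factors from different levels, 2.97-fold and 3.48-fold by mean FPKM. Zm00001d020395 had 0.785, 0.272 and 0.653 FPKM in GARR2KO and 2.89, 3.23 and 2.13 FPKM in WT, with a larger error (-1.26, SE 0.165). Zm00001d020459 had 1.03, 4.03 and 2.17 FPKM in GARR2KO and 5, 5.68 and 5.73 FPKM in WT. The GARR2KO libraries of this gene, which is 336 bp long and had 46 reads there, differed more among themselves on the log2 scale than those of any other member that fell 2-fold or more. Its log2 difference of -1.02 (SE 0.275) became -0.70 without GARR2KO replicate 1 and stayed called.

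**Figure D2:**
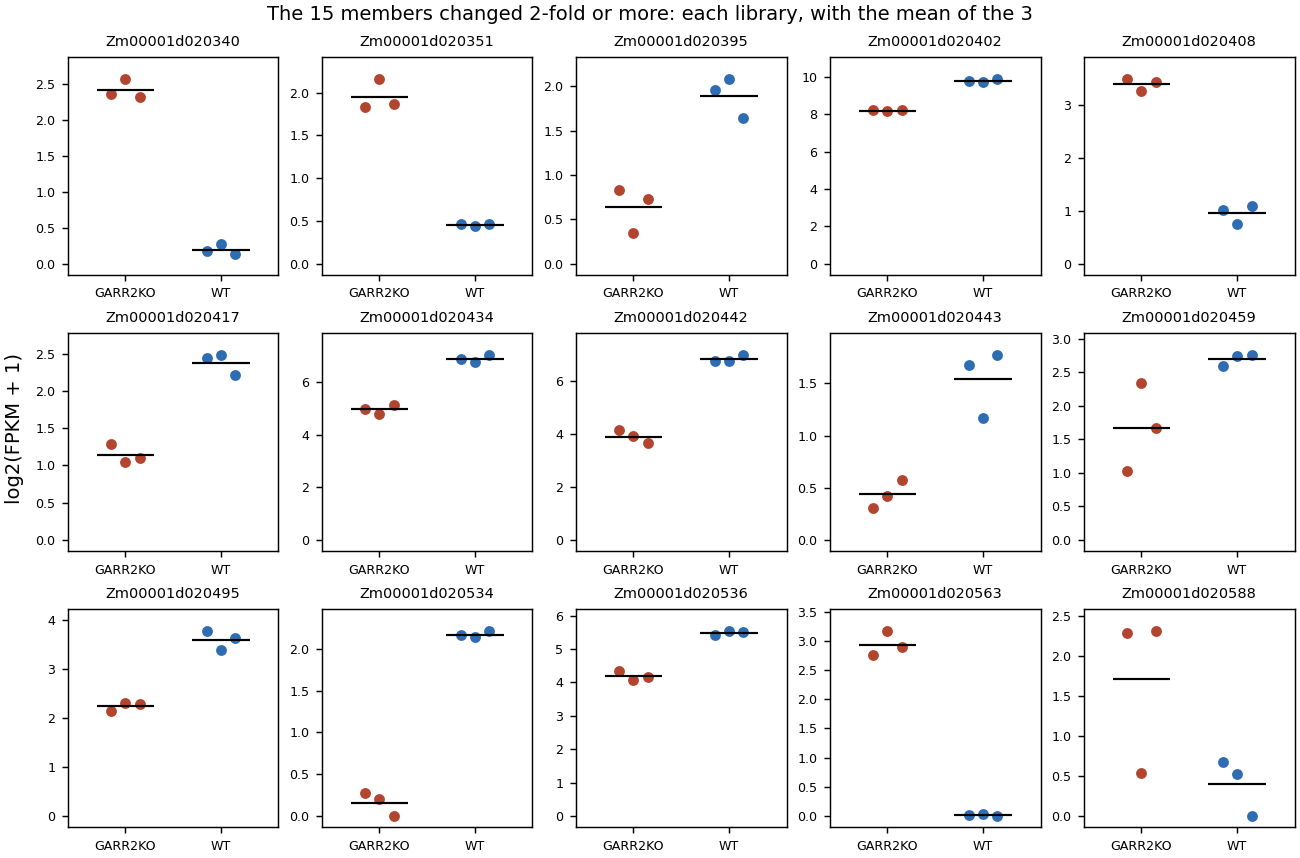
Each point is 1 library, on a log2(FPKM + 1) axis that differs between panels, with GARR2KO left of WT and a line at the mean of the 3 libraries. The groups do not overlap in 14 of the 15 members; in Zm00001d020588 GARR2KO replicate 2, at 0.449 FPKM, lies among the WT libraries.

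The limit of 2-fold divides genes that differ little. Just inside it lay Zm00001d020459 and Zm00001d020443, at -1.02 and -1.10. Just outside lay Zm00001d020437, with a log2 difference of -0.88 (SE 0.063), and Zm00001d020431, with -0.85 (SE 0.09). Zm00001d020437 had 7.68, 8.03 and 7.98 FPKM in GARR2KO and 14.7, 14.8 and 16.6 FPKM in WT. Zm00001d020431 had 1.69, 1.99 and 2.03 FPKM in GARR2KO and 4.08, 4.63 and 4.02 FPKM in WT, which is 2.23-fold lower by mean FPKM. By the ratio of mean FPKM, with no pseudocount, 17 members differed at least 2-fold, 6 higher and 11 lower in GARR2KO.

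The other 39 called members changed by less than 2-fold on the log2(FPKM + 1) scale. Among them 18 rose, by 0.15 to 0.79 on the log2 scale, and 21 fell, with differences of -0.16 to -0.88. Between 1.5-fold and 2-fold on that scale there were 1 rise and 7 falls, and under 1.5-fold there were 17 rises and 14 falls. By mean FPKM the 1 rise, Zm00001d020544, was 2.47-fold higher, and Zm00001d020431, among the 7 falls, was 2.23-fold lower. Zm00001d020544 is named only because its values were seen. Some members counted as under 1.5-fold passed that size by mean FPKM, as Zm00001d020551 did at 1.74-fold. The share of all tested genes called between 1.5-fold and 2-fold is not given here, nor is their split by direction in either class. The balance of rises and falls by size is therefore only a count of these members. Under 1.5-fold, the 31 called members compare with 31.4% of all tested genes called at that size. The 49 members that were not called had log2 differences of -0.33 to 0.23 and a median SE of 0.088. Called members under 1.5-fold reached into the same range of differences.

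The most abundant members other than Zm00001d020402 differed little between genotypes. Zm00001d020552 had 492, 490 and 506 FPKM in GARR2KO and 455, 388 and 442 FPKM in WT, a called rise of 0.21 (SE 0.065). The call was lost without GARR2KO replicate 1 (0.22), GARR2KO replicate 2 (0.22) or GARR2KO replicate 3 (0.20), and without WT replicate 2, the lowest library, the difference was 0.14 and called. The rise was larger, and called, under quantile normalization (0.28), scaling by summed gene reads (0.26) and voom (0.26). Zm00001d020580 had 295, 292 and 310 FPKM in GARR2KO and 285, 280 and 289 FPKM in WT. Although its values did not overlap, the difference of 0.07 (SE 0.045) was not called on the deposited scale, and it was called at 0.12 after quantile normalization, after scaling by summed gene reads and with voom. Zm00001d020585, at 304, 281 and 276 FPKM in GARR2KO and 258, 285 and 261 FPKM in WT, was not called (0.10, SE 0.059), except with voom (0.15). Zm00001d020583, at 195, 198 and 199 FPKM in GARR2KO and 215, 183 and 212 FPKM in WT, overlapped between genotypes (-0.04, SE 0.066).

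Members also differed in how evenly they were measured. Among members of at least 5 FPKM, the smallest spread within genotypes was that of Zm00001d020380, Zm00001d020486 and Zm00001d020580, with SDs of 0.035, 0.036 and 0.036 on the log2 scale. Zm00001d020380 had 20.6, 19.6 and 19.5 FPKM in GARR2KO and 22.6, 21.8 and 22.7 FPKM in WT, a called fall of -0.16. That call was lost without GARR2KO replicate 2, GARR2KO replicate 3, WT replicate 1 or WT replicate 3 (-0.15 each), with the replicate number as a block (-0.16), and under quantile normalization (-0.11), scaling by summed gene reads (-0.11) and voom (-0.12). Zm00001d020486 had 65.3, 69.4 and 67.8 FPKM in GARR2KO and 61, 61.8 and 59.6 FPKM in WT, a called rise of 0.15. It was not called without GARR2KO replicate 2 (0.13), GARR2KO replicate 3 (0.15), WT replicate 1 (0.15) or WT replicate 3 (0.13), or with the replicate block (0.15). The rise was larger, and called, under quantile normalization (0.22), scaling by summed gene reads (0.20) and voom (0.20). Those same settings made the fall of Zm00001d020380 smaller. On the deposited scale, changes of about 0.15 in such even genes were therefore at the edge of what 6 libraries resolve, and their size depended on the scaling.

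The largest spread within genotypes at that level was that of Zm00001d020442, Zm00001d020457 and Zm00001d020392, with SDs of 0.203, 0.164 and 0.159. Zm00001d020457 had 7.91, 7.64 and 10.5 FPKM in GARR2KO and 7.17, 7 and 7.53 FPKM in WT, and its difference of 0.22 (SE 0.108) was not called. GARR2KO replicate 3 alone stood high in it. Zm00001d020392 had 7.54, 6.03 and 5.59 FPKM in GARR2KO and 10.9, 10.1 and 12 FPKM in WT, a fall of -0.71 (SE 0.105).

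Along the number, falls outnumbered rises most in the second of 5 stretches, and rises outnumbered falls in the last. From 20390 to 20439 there were 22 members, of which 3 rose and 12 fell, with a median log2 difference of -0.31. In that stretch 4 members fell and 1 rose 2-fold or more. Among the 23 members up to 20389, 4 rose and 6 fell, and both changes of 2-fold or more were rises. Of the 18 members from 20440 to 20489, 5 rose and 6 fell, 3 of them 2-fold or more, all falls. The 21 members from 20490 to 20539 held 4 rises and 5 falls, again with 3 falls and 0 rises of 2-fold or more. Among the 19 members from 20540 on, 7 rose and 2 fell, and the 2 large changes, those of Zm00001d020563 and Zm00001d020588, were rises. Under median-of-ratios scaling, quantile normalization, scaling by summed gene reads and voom, the stretch from 20390 kept 12 falls against 4 rises and the last had 2 falls against 7 to 9 rises. The balance of the other 3 stretches was even or turned round under at least 1 of these. Over all tested genes 20.1% rose and 24.1% fell, and 2.01% rose and 2.01% fell 2-fold or more. The counts by stretch come from the contrast by which the block was picked, so they are a description.

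**Figure D3:**
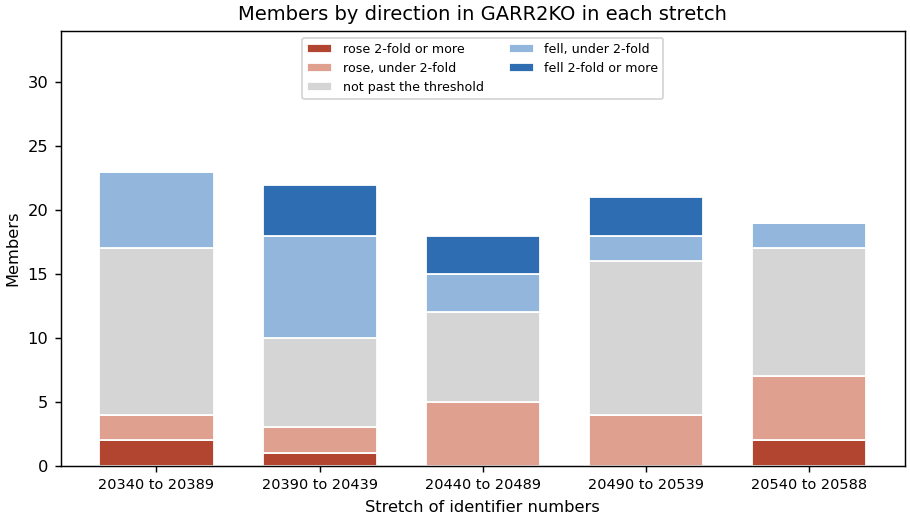
Number of members in each stretch of 50 identifier numbers (the last is shorter), split by direction in GARR2KO and by whether the change reached 2-fold. The second stretch holds 12 falls against 3 rises, and the last holds 2 falls against 7 rises. Over all tested genes 20.1% rose and 24.1% fell.

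All 10 falls of 2-fold or more lay between Zm00001d020395 and Zm00001d020536, among 58 members that also held 1 rise of that size, that of Zm00001d020408. Of the 31 members from Zm00001d020395 to Zm00001d020459, 8 changed 2-fold or more, which is 25.8%, with 7 falls and the same rise. Of all tested genes 4.01% changed that much. The 18 members between Zm00001d020351 and Zm00001d020395 held none, with 2 smaller rises and 5 smaller falls. These bounds were set after the values were seen. The longest run of neighbouring members with the same sign was 10 members lower in GARR2KO, from Zm00001d020409 to Zm00001d020431, and 6 of them were called. Neighbouring members had the same sign in 58 of 102 pairs (56.9%), and neighbouring tested genes of the whole table did so in 51.7% of pairs. In the ranges of numbers before and after the block, the share was 45.1% and 52.7%. Other members lay between the falls even where these were dense. On either side of the strongly reduced Zm00001d020402, Zm00001d020401 had a log2 difference of -0.07 and was not called, and Zm00001d020403 rose by 0.46; both are named here for their place.

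The numbers before and after the block, over ranges of equal width and by the same rule, held fewer changes of 2-fold or more. Before it, 8 of 83 genes had changed that much (9.64%), 4 up and 4 down. After it, 5 of 113 had (4.42%), 1 up and 4 down. The block's edges follow the scan that picked it, so this contrast is a description. The nearest gene outside that changed 2-fold or more lay 66 numbers before the first member, with 21 tested genes between, and 54 numbers after the last, with 29 between. Calls of any size made up 56.6% of the range before, 49.6% of the range after and 52.4% of the block, which puts the block between its neighbours in this measure.

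Level, gene length and spread within genotypes had similar medians in the block and in the whole table. Level and spread both enter the calls of a 2-fold change, so neither is independent of how the block was picked. The median level over the 6 libraries was 8.07 FPKM for the members (quartiles 2.94 and 27.2) and 8.75 FPKM for all tested genes (quartiles 3.74 and 21.3). Gene length, recovered from the values, had a median of 1700 bp in the block and 1790 bp in all tested genes. The spread within genotypes had a median SD of 0.101 in the block and 0.0945 in all tested genes on the log2 scale. Within the block, the 15 members changed 2-fold or more had a median of 3.37 FPKM, and the other 88 had 9.63 FPKM. Their median SD within genotypes was 0.148, against 0.089 in the other 88, and their median length was 1196 bp, against 1806 bp. Low genes carry fewer reads, and the part of level and length in the size of the changes was not tested.

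By level, 4 rises and 5 falls of 2-fold or more were among the 37 members at 1 to 4 FPKM, and 1 rise and 1 fall among the 26 at 4 to 16 FPKM. Above that, 2 falls and 0 rises of that size were among the 25 members at 16 to 64 FPKM, and 2 falls and 0 rises among the 15 of 64 FPKM or more. The 5 large rises of the block were thus all below 16 FPKM, and its large falls were found at every level. The share of all tested genes that changed 2-fold or more in each class is not given here. Whether the large changes of the block are spread over the levels as those of all tested genes are was therefore not tested. The share called was 43.2% of the members at 1 to 4 FPKM, where it was 32.7% of all tested genes, and 57.7% at 4 to 16 FPKM, against 43.1%. It was 68.0% at 16 to 64 FPKM, against 52.2% of all tested genes, and 40.0% at 64 FPKM or more, against 64.4%. The members' share was above that of all tested genes in 3 of the 4 classes and below it in the most abundant. These shares come from the contrast by which the block was picked, so they are a description. Across the 103 members the mean log2 levels of GARR2KO and WT had a Pearson's r of 0.931, and over all tested genes it was 0.957. Without the 15 members changed 2-fold or more it was 0.986, higher by construction, and pairs of libraries within a genotype had 0.99 to 0.998. Members share libraries and are not replicates, so these r are descriptions.

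**Figure D4:**
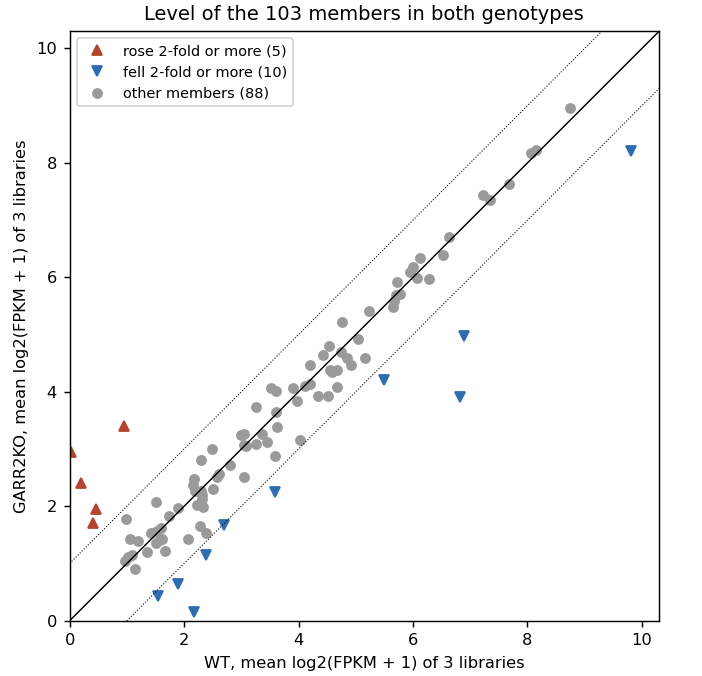
Mean log2(FPKM + 1) of 3 GARR2KO libraries against that of 3 WT libraries for each member, with the line of equal level and dotted lines at 2-fold. The 5 members that rose 2-fold or more lie near the left edge, with WT means under 1 FPKM. They met the mean of 1 FPKM asked of a member only through GARR2KO. The 10 that fell lie below the line, as far right as Zm00001d020402, with a mean of 295 FPKM in GARR2KO and 900 FPKM in WT.

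Summed over the members, the GARR2KO libraries held 3482, 3441 and 3475 FPKM and the WT libraries 4210, 4040 and 4336 FPKM. All GARR2KO sums lay below all WT sums, by 730 FPKM between the means, which were 3466 ± 22 in GARR2KO and 4196 ± 149 in WT (SD, n = 3 each). Zm00001d020402 made up 8.49 to 8.53% of the sum in GARR2KO libraries and 21.2 to 21.8% in WT libraries. Without it the sums were 3185, 3149 and 3178 FPKM in GARR2KO and 3319, 3174 and 3393 FPKM in WT. The groups then overlapped, so most of the difference in summed level came from 1 gene. The members held 0.554 to 0.563% of all FPKM in GARR2KO libraries and 0.634 to 0.642% in WT libraries.

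**Figure D5:**
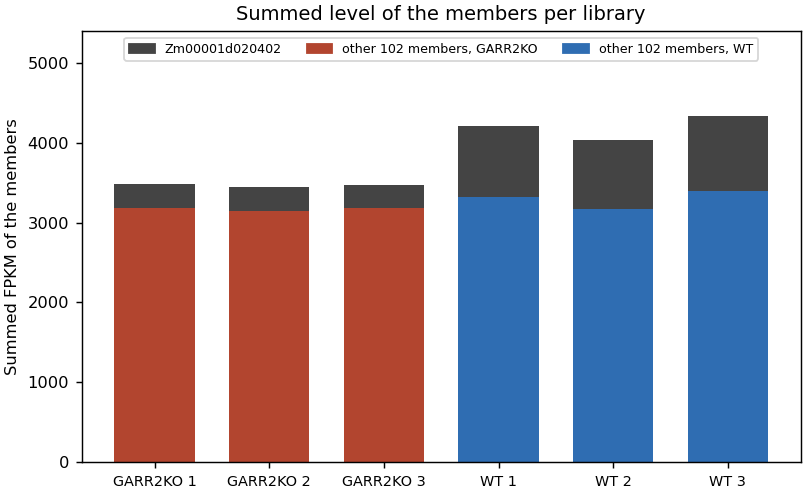
Summed FPKM of the 103 members in each library, with GARR2KO left of WT and the dark part for Zm00001d020402. The bars of the other 102 members reach 3149 to 3185 FPKM in GARR2KO and 3174 to 3393 FPKM in WT.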

How the data were processed

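The authors deposited 1 table per library with a gene identifier and a value that was taken as FPKM, since the submitters' processing notes name Cufflinks and Cuffdiff; RPKM would look the same. TopHat2 and the build B73 RefGen_v4 stand in the same notes, without versions. Annotation release and filters are not given there. Whole reads were recovered from the steps between low FPKM values, for all 31076 genes above 0 within 0.002 of a whole number, and gene lengths followed from the steps. A gene above 0 in a single library always meets that limit, so the full recovery is partly fixed in advance. In 625 genes a common factor of the reads was undone to give a whole length. Whether a read or a pair was counted is not known. limma 3.58.1 (R 4.3.3) with an intensity trend was fitted to log2(FPKM + 1), with genotype as its single covariate. The fit was also run on simulated data with far fewer changed genes than were called here, so that run does not settle how it behaves in these data. Fold changes are GARR2KO minus WT. Alternatives changed the pseudocount, filter, scaling, moderation, replicate block, libraries and block limits. Replicate numbers were not treated as pairs. Named members are those changed 2-fold or more, the most abundant, the most and least even, and those at the limits. The members, lists and rules were chosen with earlier results of these data known. Figures used matplotlib 3.10.9.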

Additional observations from a re-analysis of the deposited data

How the results depend on the processing

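The count of 54 called members ran from 36 to 62 under the alternatives, over differing numbers of members. It was 36 with a minimum mean of 5 FPKM (62 members left). It was 62 with the block lengthened by 25 numbers at each end (123 members). Over the same 103 members the count ran from 42 (without GARR2KO replicate 3) to 60 (voom). With any 1 library left out there were 42 to 48 called members, 16 to 21 higher and 25 to 30 lower in GARR2KO, and 12 to 15 members changed 2-fold or more, 4 to 5 higher and 8 to 10 lower. With the minimum of 5 FPKM, where fewer members were tested, 14 members were called higher, and 6 changed 2-fold or more, 1 higher and 5 lower. Shortening the block by 25 numbers at each end left 2 members higher by 2-fold or more and a median log2 difference of -0.08. That median of -0.04 was 0.01 with scaling by summed gene reads and 0.00 with voom, where the median of all tested genes also moved, to 0.036 and 0.042, and was -0.04 to -0.08 with a library left out. The summed difference of -730 FPKM was -125 FPKM without the most abundant member, by construction. Of the 15 members changed 2-fold or more, 14 kept their direction and call in every fit that tested them; the exception was Zm00001d020588, also lost with a pseudocount of 0.1 (2.63) and with no filter (1.31). Zm00001d020551 (0.57) and Zm00001d020552 (0.21) were also lost with no filter. Zm00001d020583, not called, changed sign to 0.01 under quantile normalization, scaling by summed gene reads and voom, and ran from -0.11 (without WT replicate 2) to 0.00 (without WT replicate 1) with a library left out. The replicate numbers do not pair the libraries by their deviations from the genotype means, whose correlations were -0.051, -0.046 and 0.049 over the tested genes. With the replicate block in the fit, 52 members were called and 15 had changed 2-fold or more. Depth limits values near 0: the member with fewest reads had 84 over the 6 libraries.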
